A study of Drosophila melanogaster with 18 samples.

Results

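RNA from Piwi-MatKD_2 embryos was compared with RNA from GFP-MatKD embryos, to ask which maternal and early zygotic transcripts differ in embryos whose mothers were depleted of Piwi through the second of the study's knockdown lines. The comparison takes 6 of the series' 18 libraries, 3 per group, chosen by their labels. Per the labels, Piwi-MatKD_2 mothers were THU/MAT-Gal4 and GFP-MatKD mothers were 41550/MAT-Gal4, where MAT-Gal4 is a driver of hairpin expression in the female germline and the other allele carries the short hairpin RNA, against piwi or against GFP. All fathers were w1118. Embryos of both groups were whole, were 0 to 1.5 h old at 25 °C, and were pooled from collection cages, and both groups carried the driver and a hairpin. The growth protocol names females with the hairpin and males with the driver. Such a cross would give females with both, as the labels describe for the mothers, so the sources may name successive crosses. Which generation the protocol describes is uncertain. Each group is a single hairpin line, and nothing in the labels says that its libraries came from separate crosses, so p-values measure the spread between libraries, which may be technical. Genes and repeat elements entered the comparison when at least 3 of the 6 libraries held at least 1 normalised read, that is, a read count divided by its library's size factor. That left 9952 of 17768 genes and 202 of 226 repeat elements.

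Piwi is a nuclear Argonaute protein of the germline that is guided by small RNAs of its own class, the piRNAs, to nascent transposon transcripts, which it silences through chromatin. Mothers load Piwi into the egg, where it is taken up by the nuclei of the embryo and concentrates in the germ cells forming at the posterior pole. In the first hours most RNA is maternal, and zygotic transcription starts with a small set of short patterning genes. The proteasome, which degrades proteins marked with ubiquitin, is a barrel of alpha and beta subunits, the core particle, capped by a regulatory particle in which Rpt ATPases unfold ubiquitin-marked proteins and Rpn subunits bind them.

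The Piwi-MatKD_2 libraries held 21.6, 8.5 and 73.0 M reads (M, 1000000) and the GFP-MatKD libraries 45.0, 16.5 and 32.9 M, and values are given in this order throughout. Ribosomal RNA took 10.9%, 5.90% and 0.328% of the reads in Piwi-MatKD_2, against 0.359%, 0.252% and 0.535% in GFP-MatKD (the 95% Wilson interval of the second share, from the shallowest library, was 5.89% to 5.92%, which covers counting error only). The 2 shallower Piwi-MatKD_2 libraries therefore stand apart, and results are also given with the deepest one alone against the 3 GFP-MatKD libraries, where the lone library is assumed to vary like the others. In those 2 libraries signal recognition particle RNA was also high, at 3730 and 31345 normalised reads, against 56.5 in the deepest and 0 to 30.8 in GFP-MatKD. Spearman's rho between libraries of a group, across all 10154 features, ran from 0.964 to 0.986 in Piwi-MatKD_2 and from 0.993 to 0.995 in GFP-MatKD. Maternal messages of the early embryo were abundant in every library: CycB had 132948, 140575 and 138431 normalised reads in Piwi-MatKD_2 and 129664, 131622 and 131119 in GFP-MatKD.

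The targeted gene was depleted. piwi (FBgn0004872, chromosome arm 2L, 10982205 to 10987420) had 646, 87.7 and 182 normalised reads in Piwi-MatKD_2, against 7963, 9360.5 and 8921 in GFP-MatKD. All 3 knockdown libraries lay far below all 3 controls, and the mean was 28.7-fold lower, with the library of 8.5 M reads lowest. The log2 fold change was -5.32 (SE 0.59, adjusted p 0.00205), on the scale of log2(normalised reads + 1), which understates changes of low genes, from limma fitted across all features with Benjamini-Hochberg adjustment, as are all RNA fold changes and adjusted p-values below. With the deepest library alone it was -5.58 (adjusted p 4.28e-04). In Piwi-MatKD_1, the study's other knockdown line, piwi averaged 355 ± 85.7 (SD, n = 3 in this and all such values), and the test of Piwi-MatKD_2 against Piwi-MatKD_1 gave a log2 difference of -0.67 (adjusted p 0.775). The gene overlaps SCAR, and whether reads were counted by strand is not given in the sources used here. Coordinates are those of the RefSeq table of Release 6 plus ISO1 MT, the assembly named BDGP6 in the submitters' processing notes.

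Of 10154 features tested, 334 passed an adjusted p of 0.05 (3.29%), of which 175 were higher in Piwi-MatKD_2 (1.72%) and 159 lower (1.57%). At an unadjusted p under 0.05 there were 1601. Lower calls were the larger ones, with a median log2 fold change of -2.34 against 1.18 for the higher calls, while the median over all features was -0.03. Of the 334, 313 were genes and 21 repeat elements. In all 334 the groups did not overlap. Of 8959 protein-coding genes tested 151 were higher and 141 lower, and of 293 long non-coding RNAs 2 were higher and 11 lower. The share called was similar on the large arms, from 2.84% on 2L to 3.62% on 3L, with 3.09% on X and 1.05% of the 95 tested genes of chromosome 4. With the deepest Piwi-MatKD_2 library alone, 160 features passed (1.58%), 98 higher (0.965%) and 62 lower (0.611%). The count rests on each control library: it fell to 116, 164 and 125 without the GFP-MatKD library of 45.0, 16.5 or 32.9 M reads, and 107 calls passed in all 6 fits that left out a library.

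**Figure D1:**
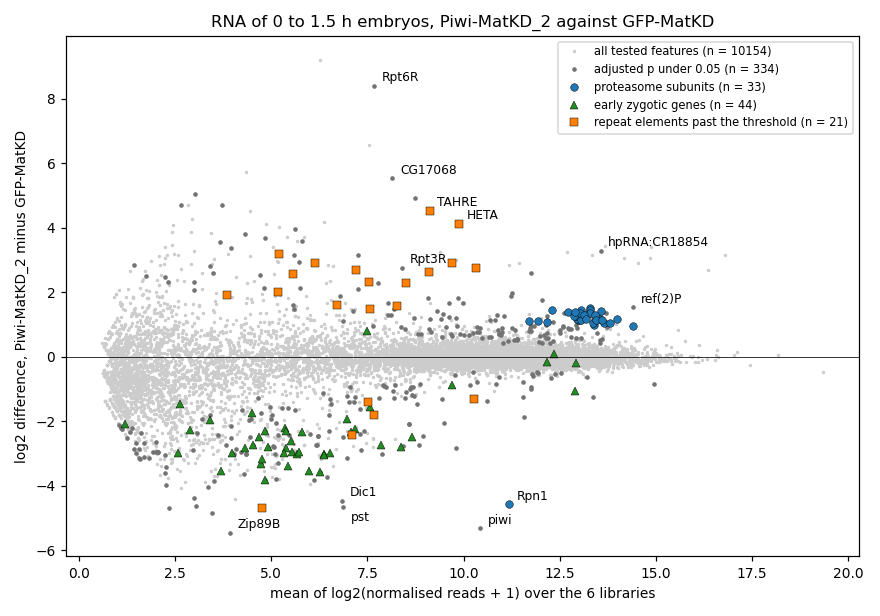
Log2 difference, Piwi-MatKD_2 minus GFP-MatKD (vertical axis), against the mean level over the 6 libraries in log2(normalised reads + 1) (horizontal axis), for all 10154 features as light points and the 334 past an adjusted p of 0.05 as darker ones. Proteasome subunits lie in a band around a difference of 1.18 at high levels with Rpn1 far below them at -4.57, early zygotic genes lie mostly below 0 at low levels, and Rpt6R is the highest of the features that passed, at 8.41.

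A proteasome subunit was among the deepest losses. Rpn1 (FBgn0028695, 3L, 19915051 to 19918160), a large scaffold subunit of the regulatory particle that docks ubiquitin shuttle receptors and the deubiquitinase Usp14, had 417, 404 and 632 normalised reads in Piwi-MatKD_2, against 10947, 10526 and 12443 in GFP-MatKD. No knockdown library came near a control, and the mean was 23.3-fold lower (log2 fold change -4.57, SE 0.19, adjusted p 2.48e-05). With the deepest library alone the log2 fold change was -4.16 (adjusted p 4.28e-04). In Piwi-MatKD_1 the gene averaged 10749.7 ± 1839, and Piwi-MatKD_2 differed from it by -4.49 on the log2 scale (adjusted p 2.92e-05).

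Of the paralogs of the regulatory particle's ATPases, Rpt6R and Rpt3R showed the opposite. Rpt6R (FBgn0039788, 3R, 30582198 to 30583697), a paralog of the ATPase Rpt6, had 4630.2, 2582 and 4555 normalised reads in Piwi-MatKD_2, against 16.3, 17.0 and 3.47 in GFP-MatKD. The groups were separated by a wide gap, with a mean 320.0-fold higher (log2 fold change 8.41, SE 0.52, adjusted p 1.62e-04), the largest change among the features that passed. It averaged 20.8 ± 2.93 in Piwi-MatKD_1, so the lines differed as well (7.45 on the log2 scale, adjusted p 2.28e-04). Rpt3R, a paralog of the ATPase Rpt3, had 1009, 648 and 1042 normalised reads in Piwi-MatKD_2 and 136, 153 and 102 in GFP-MatKD, without overlap (2.77, SE 0.24, adjusted p 5.34e-04). It overlaps Alg12 in the annotation. The parent genes rose too. Rpt6 had 17460.1, 18509 and 19435 in Piwi-MatKD_2 against 8478, 9002 and 7784 in GFP-MatKD (1.13, adjusted p 5.64e-04), and Rpt3 had 8037, 15894 and 14672 in Piwi-MatKD_2 against 5014, 4407 and 4791 in GFP-MatKD (1.38, adjusted p 0.045). Neither overlapped, but Rpt3 passed in 1 of the 6 fits without a library. Of 15 listed proteasome paralogs 4 were tested, and 3 of these rose, against 1.72% of all features. Rpt6R, 1 of the 3, was named with earlier results of these data known, so the count is a description. The third, Prosalpha1R, has nearly the same values in every library as its parent Prosalpha1 (1.12 and 1.12), so reads of the pair may not be separable. Prosbeta2R2 stood at 0 to 1.16 normalised reads in Piwi-MatKD_2 and 0 to 2.60 in GFP-MatKD, and 9 other paralogs had no reads in any of the 6 libraries. Rpt4R, also listed as an ATPase paralog, and Prosalpha4T2 had some reads but too few to be tested.

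**Figure D2:**
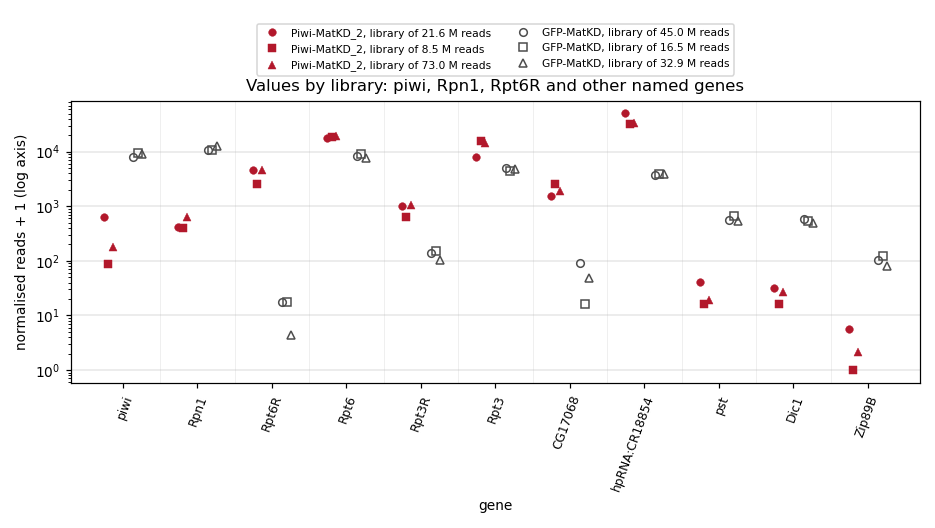
Normalised reads plus 1 (log axis) in each library for piwi, Rpn1, the ATPase paralogs Rpt6R and Rpt3R and their parents, and other named genes, with Piwi-MatKD_2 as filled symbols left of GFP-MatKD as open ones. The groups do not overlap for any gene shown, and Rpt6R spans 2582 to 4630 in Piwi-MatKD_2 against 3.47 to 17.0 in GFP-MatKD.

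Most of the remaining proteasome subunits rose. Of the 33 subunits, all of which were tested, 23 rose and 1, Rpn1, fell, while 1.72% and 1.57% of all features did so, and the median log2 fold change of the 33 was 1.18 against -0.03 for all features. In 31 subunits all 3 Piwi-MatKD_2 values lay above all 3 controls, which held for 8.51% of all features. By particle, 9 of 14 core subunits and 14 of 19 regulatory subunits rose. With the deepest library alone 25 rose and 1 fell, with a median of 1.47. Summed over the 33, Piwi-MatKD_2 libraries held 368786 to 547980 normalised reads and GFP-MatKD libraries 207909 to 218591.

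Prosalpha4, an alpha-ring subunit of the core, had 12767, 18895 and 19429 normalised reads in Piwi-MatKD_2 and 6413, 5838 and 5495 in GFP-MatKD, the largest rise of a subunit (1.50, SE 0.19, adjusted p 0.00382). Prosbeta2, a catalytic subunit with trypsin-like activity, had 15466, 18567 and 19077 in Piwi-MatKD_2 and 7883, 7877 and 7669 in GFP-MatKD (1.17, SE 0.11, adjusted p 6.39e-04). Both genes were clear of overlap, with the library of 21.6 M reads lowest of the knockdown libraries. Prosbeta5, the chymotrypsin-like subunit, had 13479.5, 19158 and 24844 in Piwi-MatKD_2 and 9611, 9069 and 8495 in GFP-MatKD (1.04, adjusted p 0.0309). In the regulatory particle, the ubiquitin receptor Rpn10 had 12987, 17503 and 17916 in Piwi-MatKD_2 and 5927, 6286 and 6443 in GFP-MatKD (1.36, adjusted p 0.00321). The deubiquitinase Rpn11 had 8859, 14025 and 14481 in Piwi-MatKD_2 and 4757, 4738 and 5607 in GFP-MatKD (1.28, adjusted p 0.016). Rpn2, the other large scaffold beside Rpn1, rose by the least of those that passed: it had 23014, 35345 and 32786 in Piwi-MatKD_2 and 15410.2, 14027 and 17030.3 in GFP-MatKD (0.95, adjusted p 0.0339). Prosbeta5, Rpn11 and Rpn2 passed in 1 of the 6 fits without a library, the one without the 21.6 M-read Piwi-MatKD_2 library, with adjusted p-values of up to 0.132, 0.0903 and 0.139 in the others.

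The 9 subunits that did not pass had log2 fold changes of 1.05 to 1.47, and they were those with the widest spread relative to their mean in Piwi-MatKD_2. Prosbeta1, the caspase-like subunit, stood at 3836, 13205 and 11315 normalised reads in Piwi-MatKD_2, against 3530.0, 2609.9 and 2942 in GFP-MatKD (1.47, adjusted p 0.152). Rpn13, another ubiquitin receptor, stood at 3359, 10536 and 8522 in Piwi-MatKD_2, against 3423, 2795 and 3358 in GFP-MatKD (1.08, adjusted p 0.234). In both genes the rRNA-rich library of 21.6 M reads was near the controls and the remaining ones were well above them. All 33 subunits passed without that library, whereas 14, 15 and 14 passed without the GFP-MatKD library of 45.0, 16.5 or 32.9 M reads. All 33 had an unadjusted p under 0.05.

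**Figure D3:**
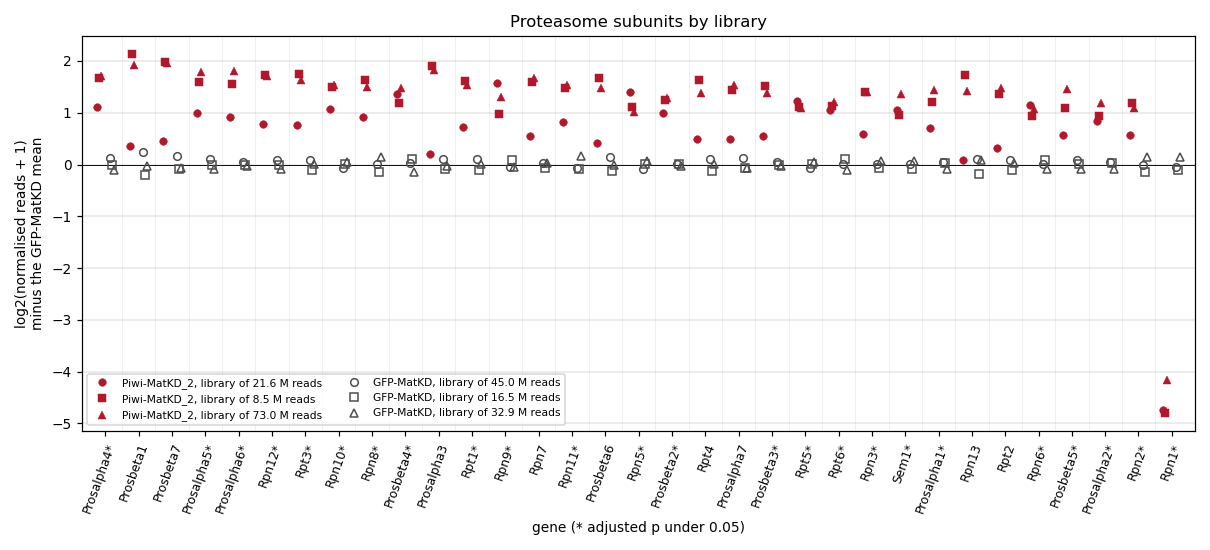
Log2(normalised reads + 1) minus the GFP-MatKD mean for each tested proteasome subunit and library, with Piwi-MatKD_2 (filled) left of GFP-MatKD (open) and asterisks for an adjusted p under 0.05. All subunits but Rpn1 have a mean difference above 0, between 0.95 and 1.50, and Rpn1 lies at -4.57.

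Genes that work with the proteasome were next. Of 21 listed genes of the ubiquitin system and proteasome partners, all tested, 7 rose and none fell, against 1.72% and 1.57% of all features, with a median log2 fold change of 0.53. The autophagy receptor ref(2)P, the fly p62, had 38789, 36500.2 and 35400.1 normalised reads in Piwi-MatKD_2 and 12875, 12917 and 12436 in GFP-MatKD, a tight 2.90-fold rise (1.53, SE 0.10, adjusted p 1.65e-04). Usp14, the deubiquitinase that binds the regulatory particle, had 23664, 20450.4 and 20187 in Piwi-MatKD_2 and 8354, 8597 and 8231 in GFP-MatKD (1.35, SE 0.11, adjusted p 3.81e-04). Neither gene's groups overlapped, and each passed in all 6 fits that left out a library. The core particle's assembly chaperone Pomp had 2772, 7485 and 5709 in Piwi-MatKD_2 and 1460.0, 1072 and 1189 in GFP-MatKD (2.00, SE 0.41, adjusted p 0.0362), but it passed in only 1 of those 6 fits, the one without the 21.6 M-read Piwi-MatKD_2 library, and it overlaps vari. The ubiquitin shuttle Ubqn and Ufd1, Npl4 and Uch-L5, cofactors of segregase and proteasome, made up the other 4, with log2 fold changes of 0.91 to 0.93. Of these, Npl4 and Uch-L5 passed in 1 of the 6 fits each. TER94, the segregase itself, stood at 51710.4, 75902 and 70665 in Piwi-MatKD_2, against 37916, 35212 and 37026 in GFP-MatKD, and did not pass (0.83, adjusted p 0.0575). The polyubiquitin gene Ubi-p5E and the activating enzyme Uba1 had log2 fold changes of 0.03 and 0.03. The count was 4 without any 1 of the GFP-MatKD libraries or without the 73.0 M-read Piwi-MatKD_2 library. PSMG1, another assembly chaperone, which was not on the list and was chosen after its values were seen, had 3049, 2898 and 4104 in Piwi-MatKD_2 and 1246, 1424 and 1485 in GFP-MatKD (1.26, adjusted p 0.00277).

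cnc, the Nrf-family activator known to induce proteasome and antioxidant genes, stood at 15078, 15291 and 13230.2 normalised reads in Piwi-MatKD_2, against 11929.8, 11511 and 12688 in GFP-MatKD, and did not pass (0.27, adjusted p 0.252), nor did its inhibitor Keap1 (0.61, adjusted p 0.0645). Of 15 listed genes of this pathway and of antioxidant defence 2 rose and 1 fell, against 1.72% and 1.57% of all features, with a median of 0.16. The glutathione S-transferase GstE1 had 1307, 1136 and 1383 in Piwi-MatKD_2 and 623, 682 and 649 in GFP-MatKD (0.96, adjusted p 0.00541), without overlap. GstD2, which lost its call in 4 of the 6 fits without a library, had 72.2, 72.5 and 103 in Piwi-MatKD_2 and 28.3, 18.7 and 33.0 in GFP-MatKD (1.61, adjusted p 0.0239). Catalase (Cat) was lower, at 661, 999 and 934 in Piwi-MatKD_2 and 1689, 1497 and 1471 in GFP-MatKD (-0.86, adjusted p 0.0259), and did not pass without any 1 of the GFP-MatKD libraries (adjusted p 0.088 to 0.137). The list's count was 1 without any 1 GFP-MatKD library.

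Detoxification genes were also counted on lists drawn up after their values were seen, so the counts are descriptions, to be read beside the 1.72% of all features that rose. Of 31 tested glutathione S-transferases 3 rose, the third being GstO3 with 458, 336 and 733 normalised reads in Piwi-MatKD_2 and 77.3, 96.7 and 127 in GFP-MatKD (2.29, adjusted p 0.00662). All 3 juvenile hormone epoxide hydrolases rose. Jheh3 had 882, 1083 and 1109.9 in Piwi-MatKD_2 and 282, 299 and 276 in GFP-MatKD (1.83, adjusted p 4.70e-04), and Jheh1 had 1203, 934 and 965 in Piwi-MatKD_2 and 349, 390.3 and 422 in GFP-MatKD (1.41, adjusted p 0.00205). Jheh3 averaged 929 in Piwi-MatKD_1, a log2 difference between the lines of 0.14 (adjusted p 0.859), whereas Jheh1 averaged 368 there, a difference of 1.48 (adjusted p 0.00163). Of 13 genes for insertion into and transport across the membrane of the endoplasmic reticulum 4 rose, led by EMC2B (0.89, adjusted p 0.0329) and Sec61beta (0.77, adjusted p 0.00277), of which Sec61beta passed in all 6 fits without a library, and the count was 1 without any 1 GFP-MatKD library or the 8.5 M-read Piwi-MatKD_2 library and 2 without that of 73.0 M.

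Of 22 tested heat shock genes 1 rose, against 1.72% of all features, and none fell. It was the co-chaperone DnaJ-1, with 15058, 14860.2 and 15448 normalised reads in Piwi-MatKD_2 and 10454, 10494 and 10047 in GFP-MatKD (0.55, adjusted p 0.0121). Its groups did not overlap, but it did not pass without any 1 of the GFP-MatKD libraries (adjusted p 0.0639 to 0.0866), and without the 21.6 M-read Piwi-MatKD_2 library 3 of the 22 passed. The inducible Hsp70Ab stood at 1836, 3001 and 2659 in Piwi-MatKD_2, against 1346, 1317 and 877 in GFP-MatKD, without overlap, and did not pass (1.08, adjusted p 0.0558). Of 10 tested apoptosis genes 1 rose, against the same 1.72%, and none fell. This was the effector caspase Drice, with 4058, 4881 and 4829.7 in Piwi-MatKD_2 and 2759, 2559 and 2507 in GFP-MatKD (0.81, adjusted p 0.00846), and its call was lost without the GFP-MatKD library of 32.9 M reads (adjusted p 0.0524), while 2 of the 10 passed without the Piwi-MatKD_2 library of 21.6 M. Medians were 0.36 for the heat shock genes and -0.17 for the apoptosis genes.

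Among the other genes, the 12 features with the largest rises, given a mean of at least 100 normalised reads in the higher group, held Rpt6R, 8 other genes, and 3 repeat elements that are described with the repeats. CG17068 had 1516, 2509 and 1906 normalised reads in Piwi-MatKD_2 and 90.5, 15.3 and 47.7 in GFP-MatKD (5.54, SE 0.54, adjusted p 9.94e-04). l(2)41Ab, a gene in the heterochromatin of 2R, had 3714, 1537 and 2228 in Piwi-MatKD_2 and 69.1, 59.4 and 107 in GFP-MatKD (4.92, SE 0.37, adjusted p 3.41e-04). Both were far apart between the groups, and their tests of Piwi-MatKD_2 against Piwi-MatKD_1 gave -0.04 (adjusted p 0.995) and 0.04 (adjusted p 0.995). l(2)41Ab overlaps the lncRNA CR44043.

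The hairpin RNA gene hpRNA:CR18854, whose long inverted repeat is known to give rise to endogenous siRNAs, had 50113, 32363 and 33038 normalised reads in Piwi-MatKD_2 and 3744, 3974 and 3898 in GFP-MatKD. Its controls agreed closely and every knockdown library was several times higher (9.94-fold in the means, log2 fold change 3.28, SE 0.18, adjusted p 9.91e-05). IP3K1, an inositol trisphosphate kinase gene that overlaps it, also rose, with 6397, 10059 and 9332 in Piwi-MatKD_2 and 1413, 1298 and 1479 in GFP-MatKD (2.60, adjusted p 2.86e-04), and reads of the pair cannot be told apart here. In Piwi-MatKD_1 hpRNA:CR18854 averaged 5159.7 ± 662, a difference between the lines of 2.88 (adjusted p 1.33e-04).

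Rbp4, an RNA-binding protein of spermatocytes, had 81.6, 83.9 and 155 normalised reads in Piwi-MatKD_2 and 5.65, 5.09 and 11.3 in GFP-MatKD (3.70, SE 0.62, adjusted p 0.0143). blanks, a protein that binds double-stranded RNA, had 243, 83.9 and 367 in Piwi-MatKD_2 and 17.0, 6.79 and 13.0 in GFP-MatKD (3.98, SE 0.73, adjusted p 0.021). In both genes the deepest knockdown library was highest and the groups did not overlap. Rbp4 did not pass without the GFP-MatKD library of 45.0 or 16.5 M reads or the Piwi-MatKD_2 library of 73.0 M (adjusted p 0.0504 to 0.0788), and blanks without any 1 GFP-MatKD library or that Piwi-MatKD_2 library (0.0675 to 0.0873). CG12493 had 273, 145 and 188 in Piwi-MatKD_2 and 19.5, 11.9 and 14.8 in GFP-MatKD (3.61, adjusted p 0.00118). dany had 139.6, 133 and 154 in Piwi-MatKD_2 and 14.4, 17.0 and 13.9 in GFP-MatKD (3.16, SE 0.25, adjusted p 3.81e-04), and CG30428 had 747, 339 and 366 in Piwi-MatKD_2 and 58.4, 57.7 and 37.3 in GFP-MatKD (3.15, adjusted p 0.0027). These 3 passed in all 6 fits without a library, and CG12493 and CG30428 overlap other tested genes, RhoGEF64C and CG9380.

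The 12 largest falls took in piwi, Rpn1, 1 repeat element and 9 other genes. Zip89B, a zinc transporter of the ZIP family, had 4.71, 0 and 1.16 normalised reads in Piwi-MatKD_2 and 102, 124 and 79.0 in GFP-MatKD (-5.45, SE 0.79, adjusted p 0.00748). These knockdown values rest on 0 to 3 reads. pst (pastrel), known for resistance to RNA viruses, had 39.2, 15.3 and 18.2 in Piwi-MatKD_2 and 564, 669 and 528 in GFP-MatKD (-4.65, SE 0.32, adjusted p 2.86e-04), a mean 24.2-fold lower. Dic1, a mitochondrial carrier of dicarboxylates, had 31.4, 15.3 and 26.3 in Piwi-MatKD_2 and 584, 528 and 499 in GFP-MatKD (-4.46, SE 0.26, adjusted p 1.17e-04), 22.1-fold lower. Both were separated widely and averaged 628 and 525 in Piwi-MatKD_1, differences between the lines of -4.75 (adjusted p 2.09e-04) and -4.44 (adjusted p 1.33e-04). Dic1 overlaps Elp6. Tep4, a thioester-containing protein of immune defence, had 28.2, 22.9 and 19.0 in Piwi-MatKD_2 and 339, 349.6 and 266 in GFP-MatKD (-3.72, SE 0.27, adjusted p 2.86e-04).

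The other genes of this group varied more between libraries. jtb had 40.8, 3.81 and 29.4 normalised reads in Piwi-MatKD_2 and 241, 273 and 266 in GFP-MatKD (-3.83, adjusted p 0.0227), and averaged 24.7 in Piwi-MatKD_1. l(1)sc, a proneural gene of the achaete-scute complex, had 1.57, 19.1 and 15.5 in Piwi-MatKD_2 and 70.4, 236 and 132 in GFP-MatKD (-3.79, adjusted p 0.0323). Sr-CII, a scavenger receptor, had 4.71, 11.4 and 20.9 in Piwi-MatKD_2 and 281, 40.7 and 122 in GFP-MatKD (-3.29, adjusted p 0.0466). None of these overlapped between the groups, yet jtb and l(1)sc did not pass without any 1 of the GFP-MatKD libraries (adjusted p 0.0669 to 0.121), and Sr-CII passed only in the fit without the GFP-MatKD library of 16.5 M reads (up to 0.177 in the other 5). The general transcription genes MED31, a Mediator subunit, and dre4, a subunit of the histone chaperone FACT, were chosen after their values were seen. MED31 had 289, 366 and 425 in Piwi-MatKD_2 and 1472, 1448 and 1493 in GFP-MatKD (-2.05, adjusted p 2.86e-04), and dre4 had 6078, 7222 and 7166 in Piwi-MatKD_2 and 15904, 15863 and 16717 in GFP-MatKD (-1.25, adjusted p 5.34e-04), both without overlap.

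Early zygotic genes were low in Piwi-MatKD_2. Of 44 listed genes, all tested, 11 fell and none rose, against 1.57% and 1.72% of all features, and the median log2 fold change was -2.67. The estimate was negative for 42 of the 44, and in 36 all Piwi-MatKD_2 values lay below all GFP-MatKD values, as for 13.0% of all features. The list's median level per library ran from 2.86 to 5.36 in Piwi-MatKD_2 and from 6.57 to 7.67 in GFP-MatKD, in log2(normalised reads + 1). In whole embryos fewer cells or nuclei that transcribe a gene and less RNA per cell cannot be told apart. The labels give both groups the same age range. Whether the pooled embryos differed in age within that range was not tested, nor was the share of eggs that did not develop. With the deepest library alone 43 of 44 estimates were negative with a median of -2.25, and 2 passed.

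By role, the gap gene Kr had 6.28, 38.1 and 38.7 normalised reads in Piwi-MatKD_2 and 401, 176 and 272 in GFP-MatKD (-3.58, SE 0.62, adjusted p 0.0157). The pair-rule gene odd had 1.57, 11.4 and 12.8 in Piwi-MatKD_2 and 195, 78.1 and 80.7 in GFP-MatKD (-3.83, SE 0.67, adjusted p 0.0172). In both the library of 21.6 M reads was lowest and the GFP-MatKD library of 45.0 M highest, and the groups did not overlap. The pair-rule genes run (-2.30, adjusted p 0.0226) and slp1 (-2.61, adjusted p 0.0458) fell too. Of dorsoventral genes, brk, a repressor of Dpp targets, had 7.85, 15.3 and 9.67 in Piwi-MatKD_2 and 131, 44.1 and 83.3 in GFP-MatKD (-2.78, adjusted p 0.00929). tld, a protease that releases Dpp from its inhibitor, had 43.9, 83.9 and 54.9 in Piwi-MatKD_2 and 424, 275 and 237 in GFP-MatKD (-2.34, adjusted p 0.00923). Neither overlapped, and the ligand dpp itself fell (-2.97, adjusted p 0.0287). Dad, the inhibitory Smad that Dpp signalling induces, is not on the list and was chosen after its values were seen: it had 206, 221 and 141 in Piwi-MatKD_2 and 847, 855 and 700.4 in GFP-MatKD (-2.10, adjusted p 0.00152). The X-linked sex-determination signal sisA (-2.73, adjusted p 0.0367) and the Notch-pathway genes Brd (-2.93, adjusted p 0.0105) and Ocho (-3.32, adjusted p 0.0239) completed the list with CG6885, which had 22.0, 26.7 and 37.9 in Piwi-MatKD_2 and 302, 199 and 217 in GFP-MatKD (-3.02, adjusted p 0.00369) and alone of the 11 passed in all 6 fits without a library.

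Estimates were close to 0 for hb and Sxl. hb, which also has a maternal transcript, stood at 5449, 9964 and 6993 normalised reads in Piwi-MatKD_2, against 8269.8, 7458 and 9111 in GFP-MatKD (-0.19, adjusted p 0.811), and Sxl had a log2 fold change of 0.10 (adjusted p 0.921). slam, a cellularization gene, was below the controls in every Piwi-MatKD_2 library, at 3811, 7241 and 5443, against 14945, 8419 and 10488 in GFP-MatKD, but did not pass (-1.04, adjusted p 0.0916). Many patterning genes that did not pass had estimates as large as those that did but a wider spread, such as the gap gene gt with 1.57, 57.2 and 40.6 in Piwi-MatKD_2, against 287, 143 and 237 in GFP-MatKD (-3.54, adjusted p 0.119). The insulator complex Elba, of which Elba2 is on the list and the other members were chosen after their values were seen, held both kinds. Elba1 had 67.5, 347 and 236 in Piwi-MatKD_2 and 1623, 843 and 1212 in GFP-MatKD (-2.73, adjusted p 0.0413) and Elba3 a log2 fold change of -2.44 (adjusted p 0.027), but Elba2 stood at 2898, 6357 and 4501 in Piwi-MatKD_2, against 5591, 4388 and 4689 in GFP-MatKD (-0.16, adjusted p 0.9), and without any 1 GFP-MatKD library or the 73.0 M-read Piwi-MatKD_2 library none of the 3 passed. The zygotic count was 3, 7 and 2 without the GFP-MatKD library of 45.0, 16.5 or 32.9 M reads and 17 without the Piwi-MatKD_2 library of 8.5 M. An unadjusted p under 0.05 was reached by 35 of the 44.

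**Figure D4:**
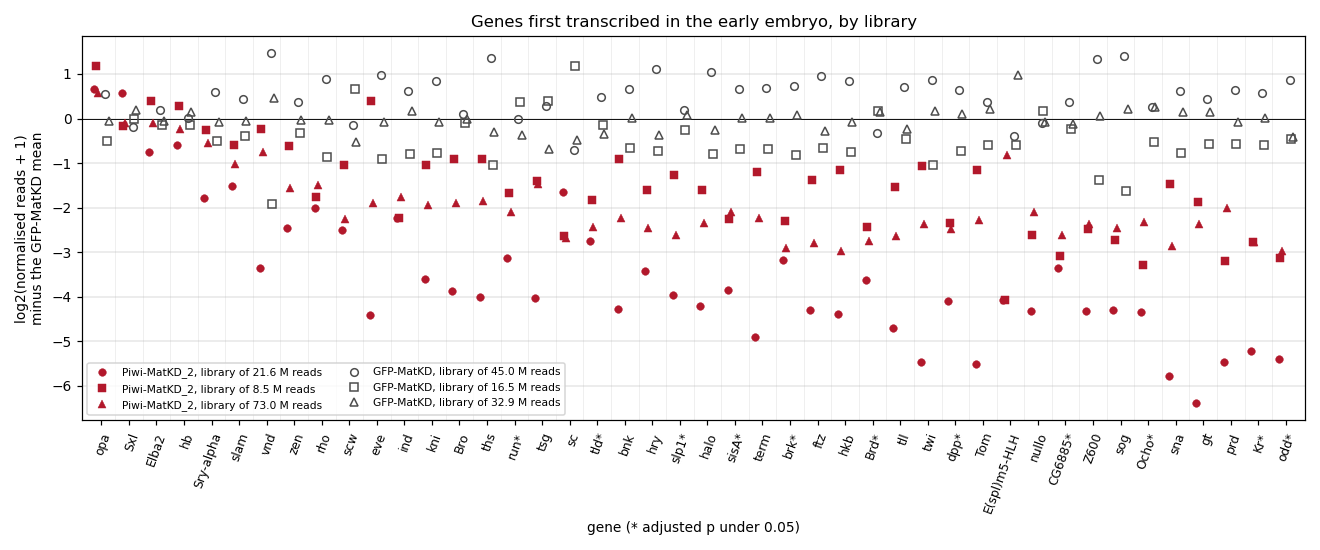
Log2(normalised reads + 1) minus the GFP-MatKD mean for each of the 44 early zygotic genes and each library, with Piwi-MatKD_2 (filled) left of GFP-MatKD (open) and asterisks for an adjusted p under 0.05. Most Piwi-MatKD_2 points lie below 0, the library of 21.6 M reads often lowest, and hb, Elba2, Sxl and opa lie near or above it.

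Repeat elements changed in both directions. Of 202 tested, 16 rose and 5 fell, which is 10.4% of the repeats against 3.29% of all features, and their median log2 fold change was 0.40. With the deepest library alone the median of the 202 was 0.22, and 75 of the estimates were negative. The 3 telomeric retrotransposons, which maintain fly chromosome ends in place of telomerase, rose together. TAHRE had 4026, 2280.3 and 2093 normalised reads in Piwi-MatKD_2 and 77.9, 107 and 183 in GFP-MatKD (4.53, SE 0.36, adjusted p 3.81e-04). HETA had 5821, 3375 and 3113 in Piwi-MatKD_2 and 187, 193 and 313 in GFP-MatKD (4.13, SE 0.29, adjusted p 2.86e-04), and TART had 1903, 1209 and 1133 in Piwi-MatKD_2 and 263, 153 and 268 in GFP-MatKD (2.63, SE 0.27, adjusted p 0.00132). No knockdown library reached into the controls, the library of 21.6 M reads was highest for all 3, and all passed in every fit without a library. The log2 fold changes with the deepest library alone were 4.17, 3.79 and 2.35. TAHRE was higher in Piwi-MatKD_2 than in Piwi-MatKD_1, where it averaged 603 ± 144 (2.18 between the lines, adjusted p 0.016), while HETA (-0.39, adjusted p 0.703) and TART (0.19, adjusted p 0.928) did not pass that test.

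Of 128 LTR elements 12 rose and 5 fell, of 37 LINE elements 4 rose, the telomeric elements and DOC3_DM, and of 28 DNA elements none passed (limma, with 3 at an unadjusted p under 0.05, none by edgeR and 2 by DESeq2). The internal part of ROVER (ROVER-I_DM) had 6349.9, 2562 and 2231 normalised reads in Piwi-MatKD_2 and 385, 538 and 565 in GFP-MatKD (2.76, adjusted p 0.00724), and its terminal repeat (ROVER-LTR_DM) had 162, 103 and 81.6 in Piwi-MatKD_2 and 12.6, 5.09 and 21.7 in GFP-MatKD (3.18, adjusted p 0.00927). MAX_I-int had 3489.5, 2848 and 1199 in Piwi-MatKD_2 and 354, 231 and 349 in GFP-MatKD (2.90, adjusted p 0.00584). In these elements the rRNA-rich library of 21.6 M reads was highest and the deepest library lowest, though still above the controls. The others that rose were ACCORD_I-int, MAX_LTR, Gypsy7_I-int, Gypsy2_I-int, Copia_I-int, BATUMI_LTR, Invader6_LTR, DM176_I-int and Chimpo_I-int, with log2 fold changes of 1.49 to 2.91. Gypsy2_I-int had 562, 278 and 455 in Piwi-MatKD_2 and 69.7, 84.8 and 92.9 in GFP-MatKD (2.32, adjusted p 0.00379), and Copia_I-int had 1209.7, 637 and 679 in Piwi-MatKD_2 and 253, 100.1 and 174 in GFP-MatKD (2.29, adjusted p 0.00942). DM176_I-int passed in none of the 6 fits without a library.

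The 5 that fell were all LTR elements. DM412, the 412 element, had 880.2, 644 and 839 normalised reads in Piwi-MatKD_2 and 1758, 2047 and 1998 in GFP-MatKD (-1.30, SE 0.16, adjusted p 0.00277). In Piwi-MatKD_1 it averaged 4729 ± 629, so the lines differed by -2.59 (adjusted p 1.33e-04). BLOOD_I-int had 119, 91.5 and 115 in Piwi-MatKD_2 and 438, 324 and 371 in GFP-MatKD (-1.79, adjusted p 0.00401), and TRANSPAC_LTR had 84.7, 61.0 and 37.5 in Piwi-MatKD_2 and 332, 369.9 and 254 in GFP-MatKD (-2.42, adjusted p 0.00848). Stalker2_LTR had 17.3, 0 and 7.35 in Piwi-MatKD_2 and 130.0, 148 and 133 in GFP-MatKD (-4.69, SE 0.88, adjusted p 0.0239), without overlap, and did not pass without any 1 of the GFP-MatKD libraries (adjusted p 0.0884 to 0.103). DM412B_LTR was the fifth (-1.39, adjusted p 0.0438). In the test against Piwi-MatKD_1, 1 of the 202 repeats was higher in Piwi-MatKD_2 and 6 were lower, against 1.32% and 1.09% of all features. The repeat count was 12 without the GFP-MatKD library of 45.0 M reads and 10 with the deepest Piwi-MatKD_2 library alone, where 7 rose and 3 fell. Summed LTR reads ran from 20324 to 48175 in Piwi-MatKD_2 and from 17010 to 17670 in GFP-MatKD. Reads of the elements inserted in ribosomal DNA, R1 and R2, took 1.59%, 0.792% and 0.0393% of the reads in Piwi-MatKD_2 and 0.0369% to 0.0703% in GFP-MatKD, high in the rRNA-rich libraries. Whether rRNA content has a part in the repeat values was not tested.

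**Figure D5:**
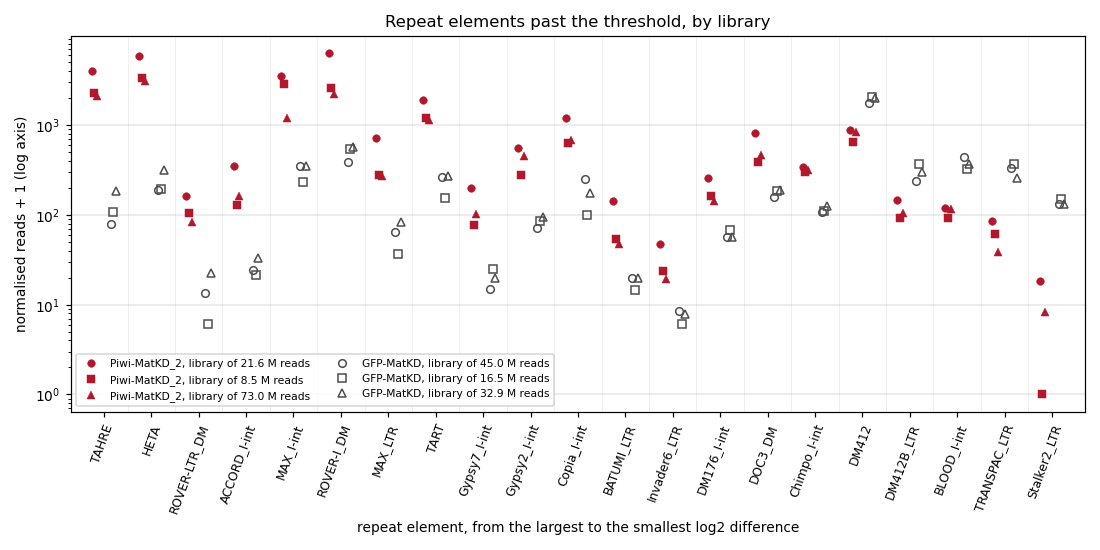
Normalised reads plus 1 (log axis) in each library for the 21 repeat elements past an adjusted p of 0.05, from the largest rise to the largest fall, with Piwi-MatKD_2 (filled) left of GFP-MatKD (open). The telomeric TAHRE and HETA show the largest rises, with 2093 to 5821 in Piwi-MatKD_2 against 77.9 to 313 in GFP-MatKD, and the groups do not overlap for any element shown.

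The machinery that Piwi works with was measured alongside. Of 13 genes of nuclear piRNA silencing piwi alone passed, and the median log2 fold change was -0.05. Panx, a partner of Piwi at its targets, stood at 2347, 1781 and 1604 normalised reads in Piwi-MatKD_2, against 1966, 1902 and 1915 in GFP-MatKD (-0.03, adjusted p 0.977). Of 21 genes of the nuage, the germline organelle of piRNA production, none passed (limma, with 1 at an unadjusted p under 0.05 and 1 each by edgeR and DESeq2). The Argonaute aub stood at 4524, 3485 and 4239 in Piwi-MatKD_2, against 3409, 3503 and 4662 in GFP-MatKD (0.09), and AGO3 had a log2 fold change of -0.03. The chaperone gene shu came closest, at 1607, 2143 and 1983 in Piwi-MatKD_2, against 1191, 1171 and 1307 in GFP-MatKD (0.63, adjusted p 0.0554), and passed without the 21.6 M-read Piwi-MatKD_2 library. Of 6 genes of the siRNA pathway none passed (1 at an unadjusted p under 0.05, none by edgeR and 1 by DESeq2). AGO2, its Argonaute, stood at 19603, 16019 and 12942 in Piwi-MatKD_2, against 10025, 10665 and 9685 in GFP-MatKD, without overlap (0.66, adjusted p 0.0698), and passed without the library of 73.0 M reads.

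Germ plasm and maternal messages were close between the groups. Of 13 germ plasm genes none passed (limma, and none at an unadjusted p under 0.05, by edgeR or by DESeq2), with a median log2 fold change of 0.06 and a range of -0.14 to 0.35. The gene nos, on this list and on that of maternal mRNA regulators, could not be matched to a gene ID and was not tested. osk, which organises the germ plasm, stood at 31144, 20214 and 20503 normalised reads in Piwi-MatKD_2, against 17534, 18538 and 19185 in GFP-MatKD (0.35, adjusted p 0.434), and vas at 11904, 7474 and 8524 in Piwi-MatKD_2, against 8288, 9640.5 and 10465 in GFP-MatKD (-0.05). Of 13 regulators of maternal mRNA 1 fell and none rose, against 1.57% and 1.72% of all features. It was Not1, the scaffold of the deadenylase complex, with 29116, 25430.4 and 17797 in Piwi-MatKD_2 and 41198, 39213 and 45712 in GFP-MatKD (-0.83, adjusted p 0.047). Not1 kept an adjusted p under 0.05 in 1 of the 6 fits without a library. The RNA-binding repressor smg had a log2 fold change of -0.09 (adjusted p 0.905), and zld, the maternal activator of the zygotic genome, stood at 16381, 25529.6 and 14768 in Piwi-MatKD_2, against 17469, 15178 and 19321 in GFP-MatKD (0.09, adjusted p 0.945).

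Housekeeping and cell-type lists gave no calls in limma fitted to all 9 RNA libraries. For 87 tested ribosomal protein genes the median log2 fold change was 0.12 (1 at an unadjusted p under 0.05, none by edgeR or DESeq2), and for 26 mitochondrial genes 0.32 (2, none and 2), where 3 passed without the 73.0 M-read Piwi-MatKD_2 library. With the deepest library alone these medians were 0.60 and -0.23, and 84 of the 87 and 9 of the 26 estimates were positive. For 32 histone genes the median was -0.38 (2, none and 1). It was -1.05 with the deepest library alone, where 20 of the 32 estimates were negative. The 11 rRNA rows had a median of 3.15 (11, none and 11), which was -0.06 with the deepest library alone, and all 11 passed without that library. Markers of ovarian follicle cells (eggshell and yolk) summed to 7.63 to 23.5 normalised reads in Piwi-MatKD_2 and 10.1 to 18.2 in GFP-MatKD, with 10 of 21 at 0 in all 6 libraries. Muscle markers of late embryos summed to 11220 to 16370 in Piwi-MatKD_2 and 13430 to 14494 in GFP-MatKD, nearly all from Tm1. Testis markers summed to 358 to 803 in Piwi-MatKD_2 and 511 to 624 in GFP-MatKD, nearly all from gdl and janB, with 11 of 16 at 0. The testis list does not hold Rbp4, the spermatocyte gene that rose. Of 16 antimicrobial genes 3 were tested. Of the 4, 8, 3 and 3 tested members of these last lists none passed, none had an unadjusted p under 0.05 and none was called by edgeR or DESeq2.

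Small RNA of 20 to 30 nt from the same lines was set beside the RNA. Those libraries held 1.88, 1.98 and 3.38 M expected counts in Piwi-MatKD_2 and 2.95, 3.18 and 2.86 M in GFP-MatKD. Of 2169 genes tested with edgeR's quasi-likelihood test, 272 passed (12.5%), 129 higher and 143 lower (5.95% and 6.59%). Of the genes called in the RNA, 51 were tested and 12 passed. Small RNA at piwi stood at 1164 ± 86.1 counts per 1000000 (CPM) in Piwi-MatKD_2 and 9.26 ± 2.83 in GFP-MatKD (SD, n = 3 each; log2 fold change 6.96, adjusted p 9.15e-06 by edgeR), the reverse of its RNA. The Piwi-MatKD_2 hairpin is directed against piwi, and whether products of the hairpin itself are among these counts was not tested. At Rpn1 there were 0 to 4.50 expected counts in Piwi-MatKD_2 and 0 to 3 in GFP-MatKD, too few to test, and at Rpt6R and jtb there were 0 in Piwi-MatKD_2 and 0 to 0.11 and 0 in GFP-MatKD. At hpRNA:CR18854 small RNA rose with the RNA, to 352 ± 176 CPM in Piwi-MatKD_2, against 59.4 ± 36.5 in GFP-MatKD (2.57, adjusted p 0.00884 by edgeR), as it did at IP3K1 (2.65, adjusted p 0.00244). At CG30428 it fell, to 16.3 ± 6.10 in Piwi-MatKD_2, against 68.8 ± 16.6 in GFP-MatKD (-2.05, adjusted p 0.00244), and likewise at Jheh3 (-2.39, adjusted p 0.00300), while l(2)41Ab, at 9661 ± 1110 in Piwi-MatKD_2 and 9993 ± 554 in GFP-MatKD, did not pass (-0.05, adjusted p 0.909).

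The test of Piwi-MatKD_2 against Piwi-MatKD_1 in the RNA libraries compared the 2 knockdown lines directly. It passed for 245 features (2.41%), 134 higher (1.32%) and 111 lower (1.09%), and it shares the Piwi-MatKD_2 libraries with the comparison above, so the values are given side by side. Proteasome subunits were higher in Piwi-MatKD_2 than in Piwi-MatKD_1 for 22 of 33 and lower for 1, Rpn1, and their summed reads were 183451 to 246900 in the Piwi-MatKD_1 libraries. Early zygotic genes were lower for 8 of 44, with a median level per library of 6.34 to 7.08 in Piwi-MatKD_1 in log2(normalised reads + 1). ref(2)P (1.48, adjusted p 1.85e-04), Usp14 (1.40, adjusted p 2.82e-04), Rpt3R (3.92, adjusted p 1.33e-04) and Tep4 (-3.57, adjusted p 2.82e-04) differed between the lines, whereas piwi, CG17068, l(2)41Ab, HETA, TART, CG30428 (0.66, adjusted p 0.523) and GstE1 (0.16, adjusted p 0.75) did not pass.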

How the data were processed

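RNA was measured in 3 Piwi-MatKD_2, 3 GFP-MatKD and 3 Piwi-MatKD_1 libraries, and small RNA of the same lines in 3 libraries each. The RNA table holds signal values, which the authors deposited as counts per gene or repeat element divided by 1 size factor per library (0.262 to 2.58). Whole reads were recovered for 100.0% of values above 0 within a tolerance of 0.01. The small RNA table holds expected counts per gene as deposited by the authors, which were rounded here. The tools cutadapt, Bowtie 1.2.2 and featureCounts and the build BDGP6 are named without roles, per the submitters' processing notes. The annotation, strand setting and treatment of multi-mapping reads are not given in the sources used here. Per the labels' protocols a stranded mRNA kit was used, while the design text names total RNA, so RNA selection is uncertain.

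RNA column names match a group but, lacking the mark of the RNA titles, no single sample, so libraries are named by their recovered read totals. limma 3.58.1 (R 4.3.3, trended empirical Bayes) was fitted to log2(value + 1) over all 9 RNA libraries, which share 1 estimate of the spread, with Benjamini-Hochberg adjustment over 10154 features at 0.05. With 3 libraries a group an exact permutation test of 1 gene cannot go below 0.1, so none was used. For small RNA, edgeR 4.0.16 was run after TMM scaling and its expression filter, with the quasi-likelihood test. Scripts were tested on simulated data first. Named genes were piwi, Rpn1 and Rpt6R, the 12 largest changes in each direction among features that passed, did not overlap between groups and averaged at least 100 normalised reads in the higher group, and the passing members of the gene lists. The members and lists were chosen with earlier results of these data known. Of 17768 gene IDs 17671 had a symbol and 17633 a RefSeq row. Alternatives were other scalings, filters, pseudocounts, weights, edgeR and DESeq2 1.42.0 on the recovered reads, and leaving out libraries. Of the called genes 140 overlap another tested gene. Not every overlap is named above: ref(2)P overlaps CG10337, Prosbeta2 overlaps Reck, Prosbeta5 overlaps Lsm10 and MED31 overlaps slx1, among others. The check given in the closing section gave no sign that replicate numbers pair the RNA libraries, and it cannot decide this for the small RNA libraries.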

Additional observations from a re-analysis of the deposited data

Results flagged for a closer look

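Between the knockdown lines, the effect against the same GFP-MatKD libraries differed for 14 features among the 12 largest rises and 12 largest falls. This was by the limma test of Piwi-MatKD_2 against Piwi-MatKD_1 with Benjamini-Hochberg adjustment, which 2.41% of all features passed. The features were picked by Piwi-MatKD_2 values that this test uses again, so the count is a description. Values are log2 differences, Piwi-MatKD_2 minus Piwi-MatKD_1. Of the proteasome genes, Rpn1 differed by -4.49 (adjusted p 2.92e-05) and Rpt6R by 7.45 (adjusted p 2.28e-04). Higher in Piwi-MatKD_2 were also Rbp4 by 4.50, blanks by 3.90, CG12493 by 2.99, hpRNA:CR18854 by 2.88, dany by 2.53 and the telomeric element TAHRE by 2.18, with adjusted p-values up to 0.0285. Lower in Piwi-MatKD_2 were Stalker2_LTR (-4.80), pst (-4.75), Dic1 (-4.44), odd (-3.79), Tep4 (-3.57) and Kr (-3.45), with adjusted p-values up to 0.0266.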

How the results depend on the processing

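The 334 RNA calls became 212 with the 6 libraries of both groups alone, 731 with array quality weights, 816 with DESeq2, 160 without both rRNA-rich Piwi-MatKD_2 libraries, and 116 to 423 with 1 library left out. The 24 proteasome calls became 14 to 33 with 1 library left out. The 11 early zygotic calls became 7 with the 6 libraries alone or quantile normalisation, 23 with array weights, 32 with DESeq2, 2 without both rRNA-rich libraries, and 2 to 17 with 1 library left out. The 21 repeat calls became 43 with DESeq2, 10 without both rRNA-rich libraries, and 12 to 29 with 1 library left out. The 245 calls between the knockdown lines became 64 with those lines alone. The 272 small RNA calls became 110 to 201 with 1 library left out. The cause was not tested, other than that fits on fewer libraries have fewer residual degrees of freedom. Higher calls were 52.4% of the RNA calls, 44.7% with library totals without rRNA and 61.5% with quantile normalisation.

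Of 98 named features in 1960 alternative fits, 1571 kept their direction and call, 389 kept their direction only, and 0 reversed. The groups did not overlap for any of the 334 calls, so a reversal was unlikely from the outset. RNA columns carry replicate numbers but are matched to groups, not to samples. Same-numbered Piwi-MatKD_2 and GFP-MatKD columns correlated by -0.24, -0.209 and 0.0463 in their deviations from the group means, which gave no sign that the numbers pair the RNA libraries. With these numbers as a replicate block, the 6 libraries alone gave 35 RNA calls, 1 of the proteasome subunits, 0 of the early zygotic genes (limma, 36 at an unadjusted p under 0.05) and 5 of the repeats, while a replicate block over all 9 libraries, chosen after seeing the data, gave 146, 16, 6 and 15. In the small RNA the correlations were -0.0884, 0.106 and 0.51, and a replicate block gave 294 calls. Libraries of different numbers were not compared there, so these correlations cannot decide whether the small RNA libraries are paired.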
